A study of Mus musculus with 9 samples.

Results

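The BCL2 family decides whether a cell commits to the mitochondrial pathway of apoptosis. Here 10 of its genes were followed in mouse neutrophils, chosen by name from the 46517 genes of the expression table. They were the anti-apoptotic genes Mcl1, Bcl2l1 (BCL-XL), Bcl2 and the paralogs Bcl2a1a, Bcl2a1b and Bcl2a1d (A1), the BH3-only genes Bcl2l11 (BIM) and Bid, and the effector genes Bax and Bak1. All 10 were listed, and all 10 had at least 5 reads in at least 1 library, as did 17714 genes in all. The RNA came from neutrophils of the bone marrow, the blood and the pancreatic tumor of OT mice, with 3 libraries per compartment. OT mice were C57BL/6 animals that had received an orthotopic transplant of a single luciferase-expressing pancreatic tumor line derived from KPC mice, a genetic model of pancreatic cancer. Cells were taken on day 27 as live CD45+ cells lacking CD3, B220 and NK1.1 and carrying Ly6G and Ly6C. The labels describe the bone marrow cells as Ly6G high. Every library pooled 5 OT mice of 1 experiment, so all 9 libraries, bone marrow and blood included, came from mice with tumors and no library of tumor-free mice is analysed here.

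Neutrophils are short-lived cells whose survival depends on anti-apoptotic proteins that must be made continually. MCL1 is a labile protein needed for their survival, A1 is a labile protein induced by inflammatory signals, and mature neutrophils are known for low BCL2. These proteins hold BAX and BAK in check by binding them and by binding BH3-only proteins, of which BIM is controlled mainly through its amount and BID through cleavage by caspases such as caspase-8. Once free, BAX and BAK permeabilize the outer mitochondrial membrane, cytochrome c is released, and the apoptosome formed with APAF1 activates caspase-9.

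The A1 genes need a word on sequence first, because reads cannot always be assigned to 1 of them. They lie within the same region of chromosome 9 and their coding sequences of 519 bases differ at 12 positions among the 3 genes. The pairwise identity was 97.9% for Bcl2a1a and Bcl2a1b, 98.7% for Bcl2a1a and Bcl2a1d, and 98.8% for Bcl2a1b and Bcl2a1d. The first 60 coding bases, which lie in 1 exon, hold 6 of the 12 positions and are shown to let a reader see how little separates the genes. Capitals mark the bases at which the 3 genes are not all alike, and positions are on GRCm38 with GENCODE M21 transcripts.
Bcl2a1a, chr9:88957051-88957110, plus strand: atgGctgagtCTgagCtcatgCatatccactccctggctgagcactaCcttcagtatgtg
Bcl2a1b, chr9:89199360-89199419, plus strand: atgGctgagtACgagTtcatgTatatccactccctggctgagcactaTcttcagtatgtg
Bcl2a1d, chr9:88731660-88731719, minus strand: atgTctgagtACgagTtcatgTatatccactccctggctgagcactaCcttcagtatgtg
Of all windows of 151 bases, the length of 1 read, 72.0% of those of Bcl2a1a, 58.3% of those of Bcl2a1b and 70.1% of those of Bcl2a1d occurred in no transcript of another gene. The share was 97.5% for Bax and 100% for each of the other members. How reads with several matches were counted is not given in the sources used here, so the 3 genes are given singly and as their sum.

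Upstream of the transcribed part the A1 genes are alike as well. A stretch of 42 bases, shown because the 3 genes moved together, was identical in all 3 (RefSeq promoters, GRCm38.p6) and lay at chr9:88956814-88956855 on the plus strand for Bcl2a1a, chr9:89199123-89199164 on the plus strand for Bcl2a1b and chr9:88731915-88731956 on the minus strand for Bcl2a1d.
Bcl2a1a, Bcl2a1b and Bcl2a1d, shared upstream bases: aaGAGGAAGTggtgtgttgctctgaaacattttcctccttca
The capitals mark a PU.1-type motif, GAGGAAGT, searched on both strands and chosen after the sequence had been seen. PU.1 is a transcription factor of myeloid cells. The motif occurred in 3.2% of 32851 RefSeq promoter windows and, among the members, also in that of Bak1. A kappaB consensus (5.8% of windows), the HIF core ACGTG (19.6%) and the FOXO motif GTAAACA (3.65%), searched in the same way, had no match in the windows of the 3 A1 genes. Among the other members the first matched 1 of 3 windows of Bcl2l1, the second that of Bax and the third 1 of 2 windows of Bcl2l11. A match is a description of the letters only.

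Between 4580807 and 7949367 reads per library were recovered, 7108871 to 7949367 in the bone marrow, 4580807 to 6830374 in the blood and 5446499 to 6969557 in the tumor. The summed neutrophil markers (10 genes, among them Ly6g, S100a8, S100a9, Cxcr2 and Csf3r) took 88552 to 97721 RPM (reads scaled to library size) in the bone marrow, 38902 to 41177 in the blood and 11068 to 14254 in the tumor. Ly6g, the gene of the sorted surface protein, had 4527 to 5241, 580 to 654 and 200 to 456 reads in the same order. Not all 10 genes followed the sum. Cxcr2 and Csf3r were higher in blood than in bone marrow (log2 1.28 and 2.34), where 8 were lower. Ngp and Camp were higher in tumor than in blood (1.71 and 2.02), where 8 were lower. In tumor against bone marrow 9 were lower and Csf3r was not called (0.08). Markers of tumor epithelium (9 genes, among them Krt8, Krt18, Krt19 and Epcam) took 2477 to 4776 in tumor against 37.5 to 203 in blood and 39.9 to 47.4 in bone marrow, and each of the 9 was higher in tumor than in blood and bone marrow. Fibroblast markers (7 genes) took 970 to 1114 in tumor and at most 12.5 elsewhere, and all 7 were higher in tumor. Macrophage markers (9 genes, which neutrophils also express in part) took 410 to 585 in tumor, 1494 to 1671 in blood and 442 to 497 in bone marrow. Their genes went both ways between tumor and blood. Csf1r and Apoe were lower in tumor (log2 -2.54 and -0.82), C1qb, Mrc1 and Ms4a7 were higher (1.04, 1.54 and 3.88), and 4 were not called. Platelet markers (6 genes) took 579 to 805 in blood, 8.58 to 13.6 in bone marrow and 3.38 to 9.39 in tumor. Lymphocyte markers (10 genes) took 107 to 182 in blood, 39.9 to 73.6 in bone marrow and 7.57 to 10.7 in tumor. Red cell markers (7 genes) took 292 to 605 in blood and 11.3 to 142 elsewhere, and endothelial markers (5 genes) 65.8 to 114 in tumor, 101 to 150 in blood and 12.2 to 21.4 in bone marrow. In blood the endothelial reads were those of Vwf (305 to 602) and Pecam1 (138 to 235), while Cdh5 and Tek had 0 and Kdr at most 2. Of the 5 endothelial genes, 4 were higher in tumor than in blood and Vwf was lower. The part of these other cells in the differences below was not tested. In bulk samples, fewer cells of a type and less RNA per cell cannot be told apart.

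Mcl1, Bcl2l1, the A1 genes, Bcl2l11 and Bid were higher in blood than in bone marrow. Bcl2l1 and the A1 genes rose again from blood to tumor, where Bax rose too and Bid fell. Compared with bone marrow, tumor neutrophils had 7 members higher and 1 lower (limma, Benjamini-Hochberg adjusted p under 0.05), against a background of 26.9% higher and 19.5% lower among the 17714 genes tested. Compared with blood, 5 members were higher and 1 lower in tumor, against 33.8% and 21.1% of all genes. With the A1 reads summed to 1 gene, 3 of 8 members were higher, against 5994 of 17712 genes. Blood had 7 members higher than bone marrow and none lower, against 13.7% and 18.1% of all genes. The ranges of tumor and bone marrow did not overlap for any of the 10 members (55.7% of all genes), those of tumor and blood for 7 (59.4%) and those of blood and bone marrow for 8 (45.2%). The median log2 fold change of the members was 1.91 for tumor minus bone marrow, 1.26 for tumor minus blood and 1.15 for blood minus bone marrow, and that of all genes tested was 0.29, 0.50 and 0. Apart from the summed count, the A1 genes, which share sequence, enter these counts and medians singly.

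**Figure D1:**
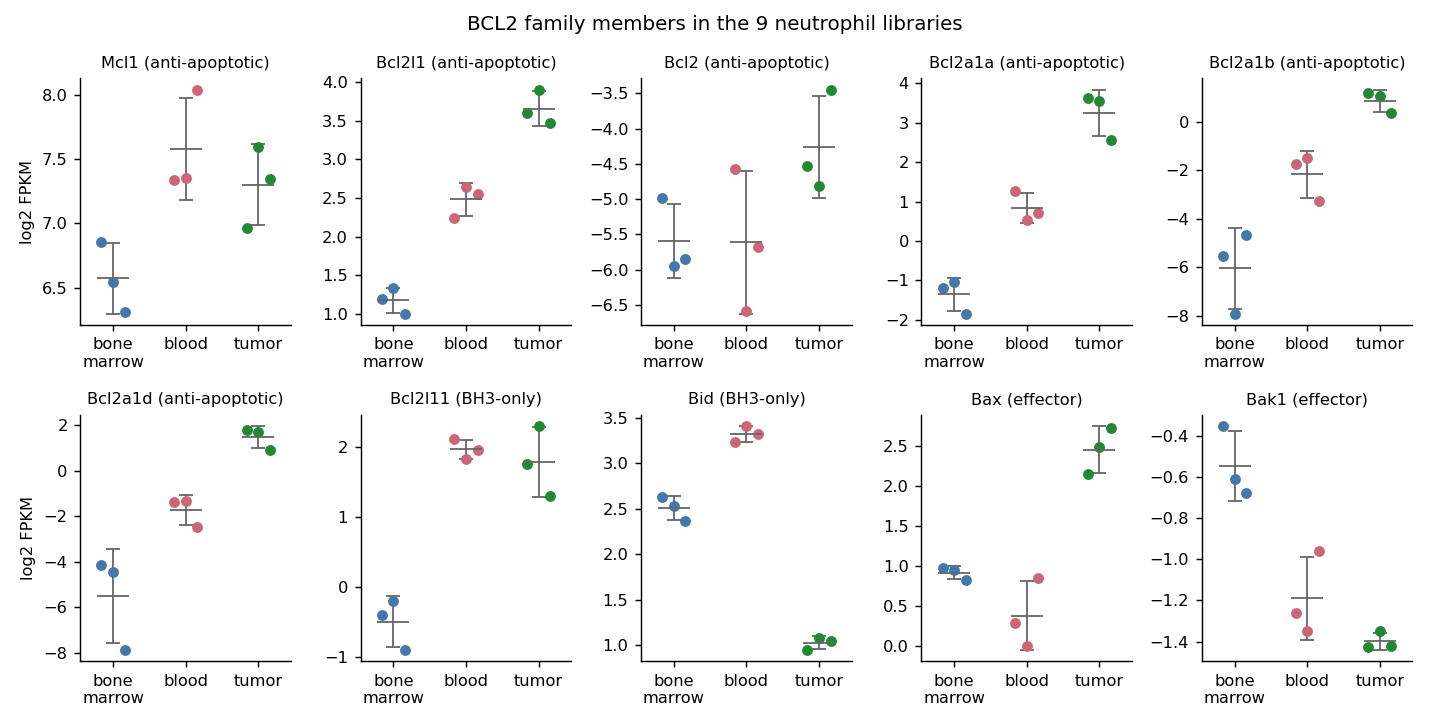
Deposited log2 FPKM (y axis, a separate scale in each panel) of the 10 members in bone marrow, blood and tumor neutrophils (x axis). Points are libraries and bars the mean ± SD of 3. Bcl2l1 and the Bcl2a1 genes stand in 3 separate steps, Bid is highest in blood and lowest in tumor, and Bax is high in the 3 tumor libraries.

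The scaling of the libraries matters for the tumor comparisons. With median centring the median of all genes for tumor minus blood moved from 0.50 to -0.25, and the split of all calls from 5996 higher and 3735 lower to 4214 and 5957. Among the members it became 4 higher and 4 lower, because Mcl1, Bcl2l11 and Bak1 joined Bid and Bcl2l1 was lost. For tumor minus bone marrow the split of all calls moved from 4770 and 3459 to 3577 and 5131, and that of the members to 6 and 2. Without the authors' scaling, on plain library totals, the members were split 6 and 1 for tumor minus blood and 8 and 1 for tumor minus bone marrow. Bax, the A1 genes and Bid kept their call and their direction in the tumor under quantile normalization, median centring and plain totals, and so did Bcl2l1 except against blood with median centring (log2 fold change 0.42, adjusted p = 0.0546, the highest of its 24 alternatives).

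Mcl1 (chr3:95658788-95663176, plus strand) was the most abundant member in every compartment. Its level, in RPM per exonic kilobase (on the authors' scaled library sizes), was 149, 120 and 102 in the 3 bone marrow libraries, 208, 210 and 338 in the blood libraries, and 160, 248 and 209 in the tumor libraries. Every blood and tumor library lay above every bone marrow library, and blood and tumor overlapped. On the log2 FPKM scale Mcl1 was 1.00 ± 0.22 (SE) higher in blood than in bone marrow (limma, adjusted p = 0.00579) and 0.73 ± 0.22 higher in tumor than in bone marrow (limma, adjusted p = 0.0206). Between tumor and blood the difference was -0.28 ± 0.22 (limma, adjusted p = 0.311). The call against bone marrow in the tumor was lost in 9 of 24 alternatives (adjusted p from 0.000916 to 0.423). Among these it was lost with median centring (0.25) and without bone marrow replicate 2, bone marrow replicate 3, tumor replicate 2 or tumor replicate 3 (adjusted p = 0.0631, 0.0898, 0.117 and 0.093, limma).

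Bcl2l1 (chr2:152780668-152831728, minus strand), which encodes the long-lived survival protein BCL-XL, rose at each step. Its level was 25.4, 28.0 and 22.3 in the bone marrow, 52.8, 69.7 and 65.2 in the blood, and 135, 166 and 124 in the tumor. The 3 compartments did not overlap. It was 2.47-fold higher in blood than in bone marrow (log2 1.31 ± 0.15 SE, limma adjusted p = 0.000109), 2.26-fold higher in tumor than in blood (log2 1.18 ± 0.15 SE, limma adjusted p = 9.14e-05), and 5.58-fold higher in tumor than in bone marrow (log2 2.48 ± 0.15 SE, limma adjusted p = 6.12e-07).

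Bcl2 (chr1:106538178-106714274, minus strand) had the lowest level in every compartment once the A1 genes were summed. It had 37, 16 and 20 reads in the bone marrow, 29, 10 and 16 in the blood, and 47, 47 and 128 in the tumor, or levels of 0.31 to 0.60, 0.20 to 0.80 and 0.68 to 1.76 per exonic kilobase. Tumor replicate 3 stood above the other libraries and was also the tumor library with the most tumor epithelium markers (4776 RPM, against 3203 and 2477 in replicates 1 and 2). The part of those markers in the Bcl2 value was not tested. The differences were 1.35 ± 0.57 (SE) for tumor minus blood (limma, adjusted p = 0.064), 1.33 ± 0.57 for tumor minus bone marrow (limma, adjusted p = 0.0761) and -0.02 ± 0.57 for blood minus bone marrow (limma, adjusted p = 1), none of which passed. Without blood replicate 1 the tumor minus blood value was 1.87 and passed (limma, adjusted p = 0.0177), and without tumor replicate 3 it was 0.94 (limma, adjusted p = 0.245). The tumor minus blood value also passed with limma-voom on the recovered reads (1.43, adjusted p = 0.0422), on plain totals (1.80, 0.0234) and with the replicate block (1.35, 0.0442), and over all alternatives its adjusted p ran from 0.0177 to 0.384. Tumor minus bone marrow passed with limma-voom (1.32, adjusted p = 0.0453) and on plain totals (1.78, 0.0283). With quantile normalization both differences were negative, at -0.75 and -0.76.

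Against bone marrow and against blood, the A1 genes had the 3 largest log2 fold changes of the members in tumor. Bcl2a1a (chr9:88956900-88962419, plus strand) had 16, 15 and 10 reads in the bone marrow, 52, 44 and 42 in the blood, and 419, 492 and 259 in the tumor. Bcl2a1b (chr9:89199209-89207827, plus strand) had 1, 0 and 2 reads in the bone marrow, 10, 17 and 4 in the blood, and 122, 135 and 87 in the tumor. Bcl2a1d (chr9:88723285-88731914, minus strand) had 3, 2 and 0 reads in the bone marrow, 13, 19 and 7 in the blood, and 187, 210 and 130 in the tumor. For each gene the 3 compartments were separate, with bone marrow close to 0 for Bcl2a1b and Bcl2a1d. The reads of the 3 genes together were 20, 17 and 12 in the bone marrow, 75, 80 and 53 in the blood, and 728, 837 and 476 in the tumor.

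Taken as 1 gene, A1 was 5.67-fold higher in blood than in bone marrow (log2 2.504 ± 0.33 SE, limma adjusted p = 0.000223) and 6.31-fold higher in tumor than in blood (log2 2.66 ± 0.33 SE, limma adjusted p = 6.32e-05). Tumor stood 35.8-fold above bone marrow (log2 5.16 ± 0.33 SE, limma adjusted p = 7.43e-07). Bcl2a1a alone rose by 2.18 ± 0.36 (SE, log2) from bone marrow to blood and by 2.42 ± 0.36 from blood to tumor (limma, adjusted p = 0.000983 and 0.000228). Bcl2a1b was 3.04 ± 0.87 and Bcl2a1d 3.21 ± 0.90 higher in tumor than in blood (limma, adjusted p = 0.0119 and 0.0112). Both calls were lost without tumor replicate 1 (adjusted p = 0.059 and 0.0618, limma) and without tumor replicate 2 (0.056 and 0.0601), which left 3 members higher in tumor than in blood in place of 5. Over all alternatives the adjusted p ran from 0.000281 to 0.0602 for Bcl2a1b and from 9.92e-05 to 0.0746 for Bcl2a1d. For blood minus bone marrow the 2 genes were 3.87 ± 0.87 and 3.77 ± 0.90 higher (limma, adjusted p = 0.00597 and 0.00855), calls that were lost with 1 added to the FPKM (0.196 and 0.173) and with only these 2 compartments in the fit (0.0528 and 0.0775). Against bone marrow the reads of Bcl2a1b and Bcl2a1d are too few for a precise ratio. On the authors' scaled library sizes, tumor over bone marrow was 100.3 for Bcl2a1b (95% interval 34.0 to 489, from 344 and 3 reads). For Bcl2a1d it was 92.2 (39.2 to 285, from 527 and 5 reads). These exact binomial intervals cover counting error only.

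The A1 reads were split among the 3 genes as follows. Bcl2a1a took 80.0% to 88.2% of the A1 reads in the bone marrow, 55.0% to 79.2% in the blood and 54.4% to 58.8% in the tumor. Bcl2a1b took 0% to 16.7%, 7.55% to 21.2% and 16.1% to 18.3%, and Bcl2a1d 0% to 15.0%, 13.2% to 23.8% and 25.1% to 27.3%. The ranges overlapped between all compartments for Bcl2a1b, between blood and tumor for Bcl2a1a, and between bone marrow and blood for Bcl2a1d, and the bone marrow shares rest on 12 to 20 reads per library. Since reads common to the paralogs may have been left out or shared, the shares are those of reads as counted and no test was made of them.

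**Figure D2:**
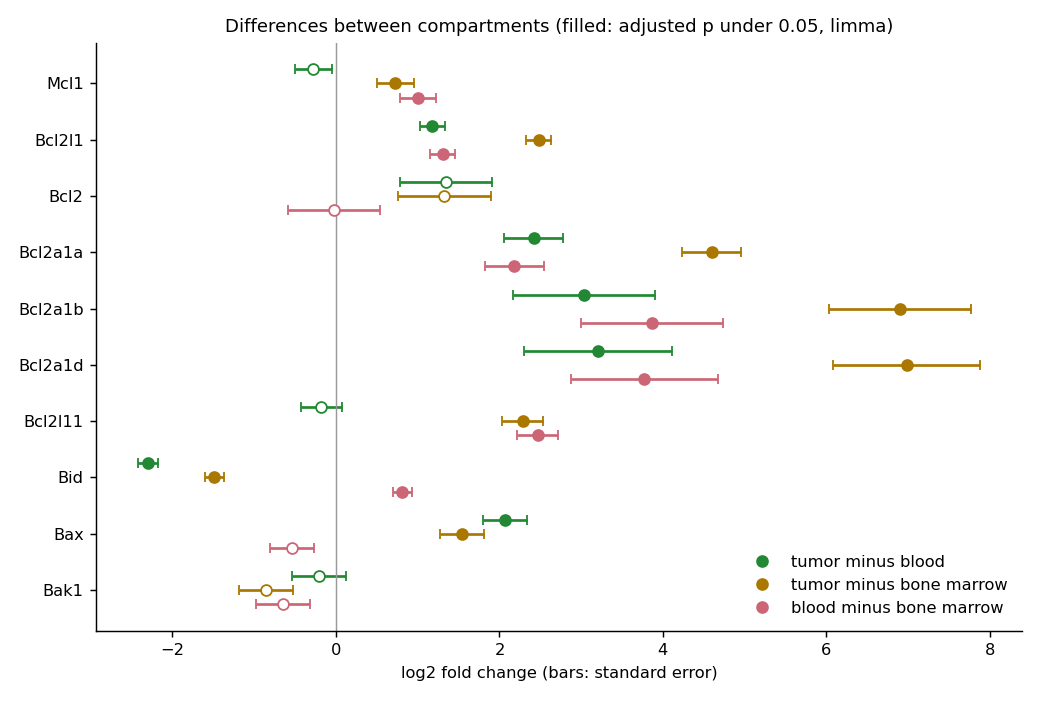
Log2 fold change (x axis) of each member (y axis) for tumor minus blood, tumor minus bone marrow and blood minus bone marrow. Bars are standard errors and filled points passed an adjusted p of 0.05 (limma). The Bcl2a1 genes lie farthest to the right in both tumor comparisons, Bcl2l11 lies to the right of Bcl2a1a for blood minus bone marrow, and Bid lies on opposite sides of 0 for blood and for tumor.

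Among the BH3-only genes, Bcl2l11 and Bid parted in the tumor. Bcl2l11 (chr2:128126038-128162547, plus strand) had levels of 3.45, 3.96 and 2.42 per exonic kilobase in the bone marrow, 19.6, 16.2 and 17.7 in the blood, and 15.4, 22.4 and 11.2 in the tumor. All blood and tumor libraries lay above bone marrow, and tumor overlapped blood. The log2 difference was 2.47 ± 0.25 (SE) for blood minus bone marrow (limma, adjusted p = 4.12e-05) and 2.29 ± 0.25 for tumor minus bone marrow (limma, adjusted p = 3.4e-05). For tumor minus blood it was -0.18 ± 0.25 (limma, adjusted p = 0.557), and 0.061 without tumor replicate 3.

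Bid (chr6:120891930-120916853, minus strand), the link from death receptors and caspase-8 to mitochondria, had levels of 43.6, 40.5 and 36.3 in the bone marrow, 66.0, 74.6 and 70.2 in the blood, and 13.5, 14.8 and 14.5 in the tumor. The 3 compartments were separate, with blood highest and tumor lowest. Bid was 1.75-fold higher in blood than in bone marrow (log2 0.81 ± 0.12 SE, limma adjusted p = 0.000463). In tumor it was 4.92-fold lower than in blood (log2 -2.30 ± 0.12 SE, limma adjusted p = 2.16e-07) and 2.80-fold lower than in bone marrow (log2 -1.49 ± 0.12 SE, limma adjusted p = 3.83e-06). It was the only member called lower in tumor against both other compartments, and both calls held in all 24 alternatives.

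Of the effectors, Bax rose in the tumor and Bak1 did not. Bax (chr7:45461697-45466898, minus strand) had levels of 6.45, 6.39 and 5.83 in the bone marrow, 4.01, 3.30 and 5.95 in the blood, and 14.6, 18.5 and 21.8 in the tumor. The tumor libraries lay above all others, and blood overlapped bone marrow. Bax was 4.20-fold higher in tumor than in blood (log2 2.07 ± 0.27 SE, limma adjusted p = 9.14e-05) and 2.90-fold higher than in bone marrow (log2 1.54 ± 0.27 SE, limma adjusted p = 0.000828). Blood minus bone marrow was -0.53 ± 0.27 (limma, adjusted p = 0.165). Tumor replicate 3, the library with the most tumor epithelium markers, had the highest Bax and the lowest A1, Bcl2l1 and Bcl2l11 of the tumor libraries, and the part of those cells was not tested.

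Bak1 (chr17:27019810-27029009, minus strand) had 48, 34 and 38 reads in the bone marrow, 15, 20 and 22 in the blood, and 21, 27 and 27 in the tumor, or levels of 2.38 to 2.98, 1.49 to 1.95 and 1.41 to 1.48 per exonic kilobase. Bone marrow was highest, and the log2 difference was -0.86 ± 0.33 (SE) for tumor minus bone marrow (limma, adjusted p = 0.0537), -0.65 ± 0.33 for blood minus bone marrow (limma, adjusted p = 0.169) and -0.21 ± 0.33 for tumor minus blood (limma, adjusted p = 0.61). The first of these passed without blood replicate 2, tumor replicate 2 or tumor replicate 3 (adjusted p = 0.0438, 0.0442 and 0.0478, limma), and in 10 of 23 alternatives in all (0.00227 to 0.346).

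Set against each other per exonic kilobase, the members kept Mcl1 first in each compartment while the order behind it changed. In bone marrow the order of mean levels was Mcl1 (124 ± 23.7, SD, n = 3), Bid (40.1 ± 3.66), Bcl2l1 (25.2 ± 2.83), Bax (6.22 ± 0.344), Bcl2l11 (3.28 ± 0.785), A1 (3.12 ± 0.825), Bak1 (2.62 ± 0.320) and Bcl2 (0.414 ± 0.165). The libraries of neighbours in this order overlapped only for Bcl2l11, A1 and Bak1. In blood it was Mcl1 (252 ± 74.2), Bid (70.2 ± 4.27), Bcl2l1 (62.6 ± 8.75), A1 (17.9 ± 4.64), Bcl2l11 (17.8 ± 1.72), Bax (4.42 ± 1.38), Bak1 (1.67 ± 0.245) and Bcl2 (0.457 ± 0.312), with overlap between Bid and Bcl2l1 and between A1 and Bcl2l11. In tumor it was Mcl1 (206 ± 43.8), Bcl2l1 (142 ± 22.2), A1 (115 ± 37.7), Bax (18.3 ± 3.60), Bcl2l11 (16.3 ± 5.64), Bid (14.3 ± 0.702), Bak1 (1.43 ± 0.0430) and Bcl2 (1.09 ± 0.586). There Mcl1 overlapped Bcl2l1, Bcl2l1 overlapped A1, Bax overlapped Bcl2l11, Bcl2l11 overlapped Bid, and Bak1 overlapped Bcl2. Bid thus stood second in bone marrow and blood and sixth in tumor.

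The anti-apoptotic level as a whole was 153 ± 25.9 (SD, n = 3) in the bone marrow, 333 ± 72.9 in the blood and 463 ± 74.6 in the tumor, and its makeup shifted. Mcl1 made up 81.0% ± 2.25 of it in the bone marrow, 75.0% ± 5.39 in the blood and 44.5% ± 7.37 in the tumor. Bcl2l1 made up 16.7% ± 2.21, 19.2% ± 3.95 and 30.5% ± 0.239. A1 made up 2.03% ± 0.333, 5.68% ± 2.38 and 24.7% ± 7.28, and Bcl2 at most 0.433% in every library. Within the effectors, Bax made up 70.4% ± 1.83 in the bone marrow, 72.0% ± 3.23 in the blood and 92.6% ± 1.35 in the tumor. Within the BH3-only pair, Bcl2l11 made up 7.50% ± 1.34, 20.3% ± 2.54 and 52.3% ± 8.34. The shares depend on the exonic length used, and counted as reads alone, A1 held 0.473%, 1.36% and 6.64% of the anti-apoptotic reads.

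**Figure D3:**
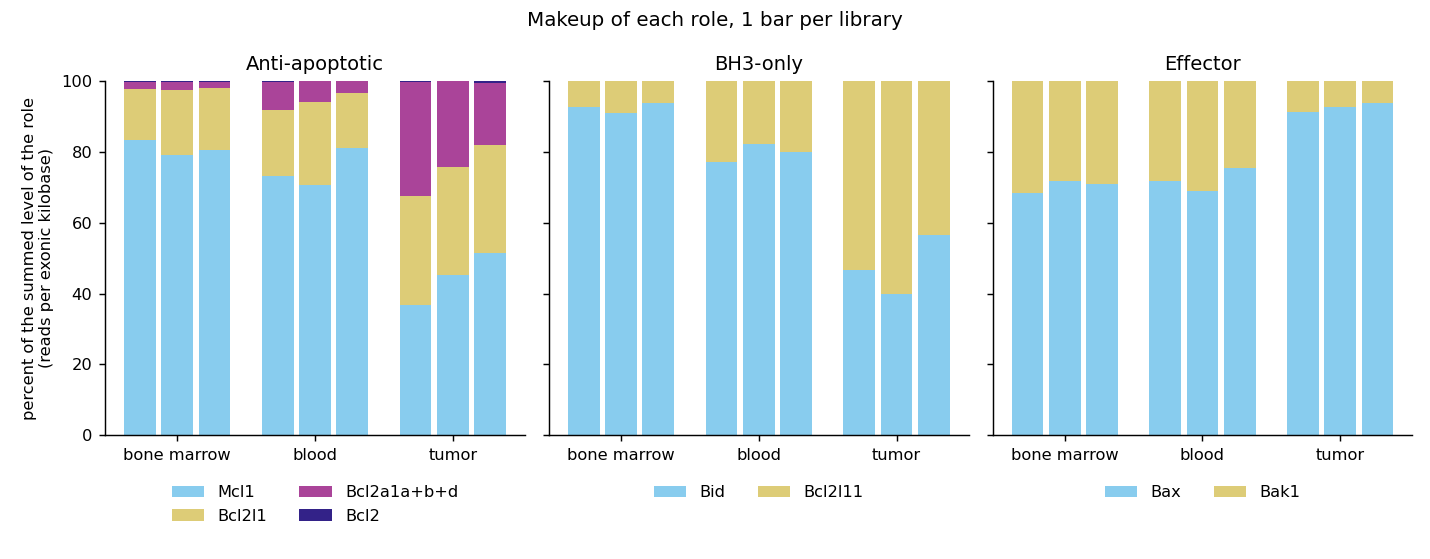
Percent of the summed level of each role (y axis, reads per exonic kilobase) held by its members, with 1 stacked bar per library grouped by compartment (x axis). In the 3 tumor libraries the Mcl1 part falls to between 36.7% and 51.4% and the Bcl2a1 and Bcl2l1 parts widen, Bcl2l11 takes between 43.5% and 60.1% of the BH3-only level, and Bax over 91.2% of the effector level.

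Ratios of 2 members within 1 library do not depend on how libraries are scaled. Of 7 ratios, 6 differed among the 3 compartments (exact permutation test of the F statistic over 280 splits, 1-sided, adjusted over the 7). Mcl1 over Bax was 4.29 ± 0.208 (SD, n = 3, log2) in the bone marrow, 5.83 ± 0.149 in the blood and 3.48 ± 0.242 in the tumor, with no overlap (exact permutation p = 0.00357, the smallest possible, adjusted p = 0.00833). A1 over Mcl1 was -5.31 ± 0.248, -3.81 ± 0.743 and -0.87 ± 0.675, and Bid over Bcl2l11 was 3.64 ± 0.277, 1.98 ± 0.226 and -0.14 ± 0.486, each with the same p. Per exonic kilobase, Bid and Bcl2l11 were thus at near equal levels in the tumor. Counted as reads alone over the tumor libraries, Bcl2l11 had 2838 and Bid 1104.

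Bcl2l1 over Mcl1 was -2.28 ± 0.237 (SD, n = 3) in the bone marrow, -1.98 ± 0.391 in the blood and -0.53 ± 0.254 in the tumor, and Bax over Bak1 was 1.25 ± 0.125, 1.36 ± 0.232 and 3.64 ± 0.285 (both exact permutation tests, adjusted p = 0.025). For both, all 3 tumor libraries lay above all others and blood overlapped bone marrow. Mcl1 over Bcl2l11 was 5.25 ± 0.286 in the bone marrow, 3.79 ± 0.431 in the blood and 3.69 ± 0.462 in the tumor (exact permutation test, adjusted p = 0.0292), with tumor overlapping blood. Bcl2 over Mcl1 did not pass (exact permutation test, adjusted p = 0.129), except without blood replicate 1 (0.0188). Between single compartments 3 against 3 libraries give no exact 2-sided permutation p below 0.1.

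**Figure D4:**
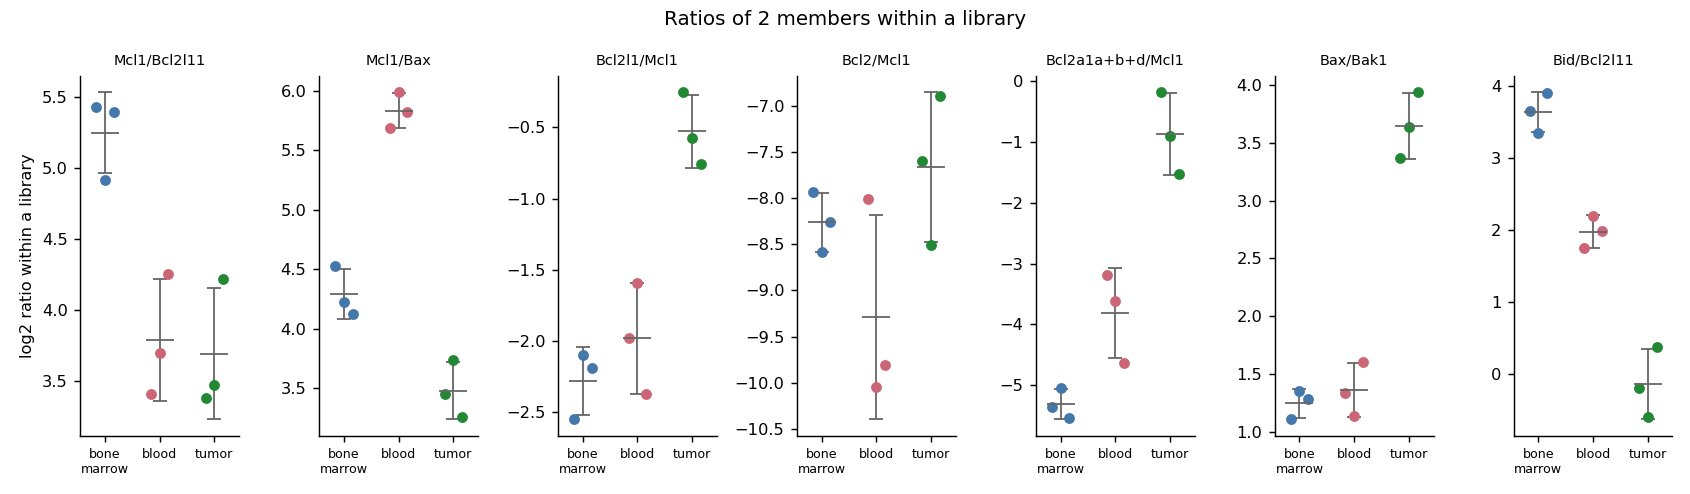
Log2 ratio of 2 members within a library (y axis, a separate scale in each panel) by compartment (x axis), from reads per exonic kilobase. Points are libraries and bars the mean ± SD of 3. Mcl1/Bax peaks in blood, Bcl2a1/Mcl1 and Bid/Bcl2l11 move in 3 separate steps, and Bax/Bak1 is highest in the 3 tumor libraries.

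The rest of the BCL2 family was read from 16 further genes, of which 12 could be tested. No read of Bcl2l10 or Hrk was found in any library, Bcl2a1c had reads in tumor only (at most 3 in a library), and Bik had at most 4. In tumor against blood 3 rose and 2 fell (median log2 fold change 1.04), in tumor against bone marrow 5 rose and 1 fell (0.72), and in blood against bone marrow 3 rose and 1 fell (0.40). Over all genes tested, 33.8% were higher and 21.1% lower in the first comparison, 26.9% and 19.5% in the second, and 13.7% and 18.1% in the third, with medians of 0.50, 0.29 and 0. Bnip3, a hypoxia-induced mitophagy receptor, had 321 to 369 reads in the bone marrow, 722 to 1300 in the blood and 3861 to 6823 in the tumor, and rose by 1.93 ± 0.18 (SE, log2) from bone marrow to blood and by 1.70 ± 0.18 from blood to tumor (limma, adjusted p = 2.72e-05 and 2.62e-05). Pmaip1 (NOXA), a BH3-only partner of MCL1, rose from 192 to 238 reads in bone marrow to 885 to 1146 in blood and 1478 to 2225 in tumor. It was 2.67 ± 0.20 higher in blood and 2.86 ± 0.20 higher in tumor than in bone marrow (limma, adjusted p = 5.68e-06 and 1.53e-06).

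Bmf, a BH3-only gene, peaked in blood. It was 1.79 ± 0.24 (SE, log2) higher there than in bone marrow and -1.55 ± 0.24 apart in tumor minus blood (limma, adjusted p = 0.000255 and 0.000279). Bad, whose product is controlled by phosphorylation, was lower in tumor than in blood by -0.69 ± 0.26 and than in bone marrow by -1.12 ± 0.26 (limma, adjusted p = 0.0459 and 0.0051). Bok, an effector-like gene, had 483 to 845 reads in the tumor libraries, 0 to 6 in blood and 0 to 1 in bone marrow, and rose by 8.51 ± 1.17 (SE, log2) over blood and by 10.37 ± 1.17 over bone marrow (limma, adjusted p = 0.000132 and 4.2e-05). Bcl2l14 and Bcl2l15 had 28 to 39 and 19 to 31 reads in tumor and at most 7 in any other library, and were called against bone marrow only (4.38 ± 1.46 and 3.56 ± 1.13, limma adjusted p = 0.03 and 0.0242). The tumor libraries in which these genes had reads are those with 2477 to 4776 RPM of tumor epithelium markers, and the part of those cells was not tested. Bcl2l2 (BCL-W) had 0 reads in all blood libraries, 3 to 6 in bone marrow and 3 to 24 in tumor. Against a floor of 3 reads over the blood group, the 46 pooled tumor reads gave a scaled ratio of 10.05. The 13 pooled bone marrow reads gave 3.25. These ratios leave out counting error and the spread between libraries.

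**Figure D5:**
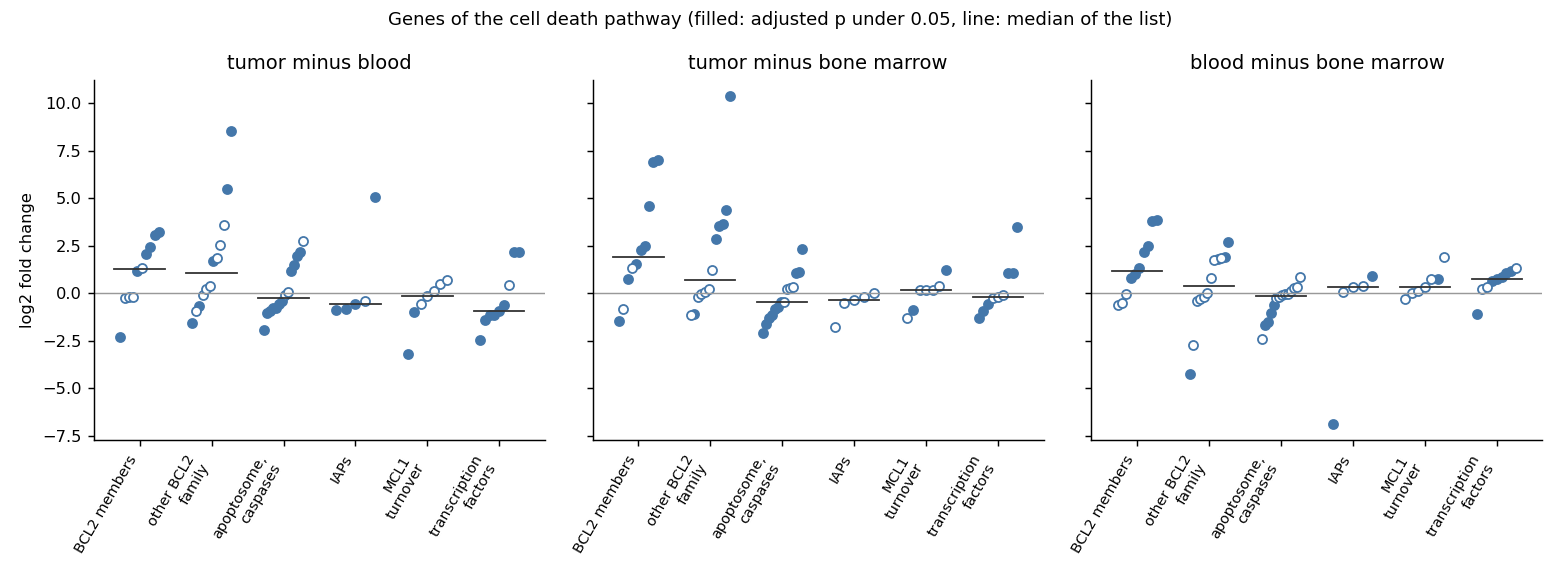
Log2 fold change (y axis) of the tested genes of each list (x axis), with 1 panel per comparison. Points are genes, filled where the adjusted p was under 0.05 (limma), and the line is the median of the list. The members have medians of 1.26, 1.91 and 1.15 in the 3 panels, and the caspase and IAP lists have medians below 0 in both tumor panels.

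In the apoptosome and caspase list, which also holds Casp8 from upstream of the mitochondria, more genes were lower than higher in the tumor. Of its 14 genes, 4 were higher and 7 lower in tumor than in blood (median -0.27), against 33.8% and 21.1% of all genes (median 0.50). In tumor against bone marrow 3 were higher and 7 lower (median -0.46), against 26.9% and 19.5% of all genes (median 0.29). In blood against bone marrow none was higher and 4 were lower, against 13.7% and 18.1% of all genes. Apaf1, the apoptosome scaffold, fell by 0.96 on the log2 scale in tumor against blood (SE 0.19) and by 1.14 against bone marrow (limma, adjusted p = 0.00136 and 0.000559). Casp9 (-0.79 and -0.81), the initiator caspase of the apoptosome, was also lower in tumor against both. Casp8, the death receptor caspase that cleaves BID, was higher against both, by 1.17 ± 0.14 and 1.06 ± 0.14 (SE, limma adjusted p = 4.9e-05 and 0.000125). Cycs, cytochrome c, was lower in blood than in bone marrow (log2 -1.67 ± 0.22 SE) and 1.94 ± 0.22 higher in tumor than in blood (limma, adjusted p = 0.000242 and 3.71e-05). Casp6 and Aifm1 were higher in tumor against both, and Dffa and Dffb lower against both. Endog was at 0 reads in all blood libraries and had 3 reads in bone marrow and 9 in tumor over the group. Median centring lowers each tumor minus blood value by 0.75 and each tumor minus bone marrow value by 0.48 on the log2 scale, and plain library totals raise both by 0.45. No call of a gene named here from these pathway lists would change sign by such a shift.

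Of 5 inhibitor of apoptosis genes, Xiap (-0.86), Birc2 (-0.58) and Birc3 (-0.87) were lower and Birc5 (5.07) was higher in tumor than in blood, and none was called against bone marrow. Of all genes, 33.8% were higher and 21.1% lower in tumor against blood, and 26.9% and 19.5% against bone marrow. Birc5, survivin, is also a mitosis gene, and had 191 to 263 reads in the bone marrow, 0 to 5 in the blood and 53 to 87 in the tumor. Markers of immature and dividing cells (6 genes, among them Mki67 and Top2a) took 1609 to 2185 RPM in the bone marrow, 32.1 to 46.9 in the blood and 88.6 to 140 in the tumor. Of 7 genes that control MCL1 turnover, none was higher and 2 were lower in tumor than in blood, against 33.8% and 21.1% of all genes. These were Gsk3b (-0.99 ± 0.12 SE, limma adjusted p = 5.6e-05) and Trim17, which had at most 12 reads. In tumor against bone marrow Gsk3b was lower (-0.87) and Huwe1, a ubiquitin ligase of MCL1, higher (1.22), against 19.5% and 26.9% of all genes. Huwe1 was also higher in blood than in bone marrow (0.76), as were 13.7% of all genes.

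Of 10 genes of transcription factors known to act on BCL2 family genes, 9 were tested, since Trp73 had no read. In tumor against blood 2 were higher and 6 lower (median -0.93), against 33.8% and 21.1% of all genes (median 0.50). Trp53, whose targets include Bax, rose by 2.16 ± 0.27 (SE, log2) over blood and 1.07 ± 0.27 over bone marrow (limma, adjusted p = 7.55e-05 and 0.00809). Foxo1 was higher against both (2.17 and 3.47), at 43 to 110 reads in tumor and at most 14 elsewhere. Stat3 (-1.42 and -0.57), Stat5a (-1.14 and -0.92) and Stat5b (-2.48 and -1.31), which act downstream of cytokine receptors, were lower in tumor against both. The NF-kB genes Nfkb1 (-1.16) and Rela (-0.60) were lower in tumor than in blood. In blood against bone marrow 5 were higher, among them Stat3 (0.84), Stat5b (1.17) and Nfkb1 (1.07), and Trp53 was lower (-1.09). Of all genes, 13.7% were higher and 18.1% lower there. Hif1a was higher in blood (0.62) and in tumor (1.05) than in bone marrow. For tumor minus blood it was 0.43 and not called (limma, adjusted p = 0.0506).

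Over the 9 libraries, the tested genes whose log2 FPKM ran closest to a member were found by Pearson's r, as a description over libraries that share their compartments. Closest to Bcl2l1 were Cd14 (r = 0.995), Bnip3 (0.995) and Kdm3a (0.994). Closest to Bcl2a1a were Tnfrsf23 (0.992), Fth1 (0.992) and Cd274 (0.988), to Bcl2a1b Gbp4 (0.991), Eif1a (0.981) and Icam1 (0.980), and to Bcl2a1d Proser2 (0.982), Cgnl1 (0.979) and Cxadr (0.979). Mcl1 ran with Mknk2 (0.975), Elk4 (0.959) and Rnf149 (0.950), and Bcl2 with Spata6 (0.952), 2810039B14Rik (0.934) and Slc4a11 (0.926). Closest to Bcl2l11 were Lpin2 (0.996), RP24-142B15.5 (0.991) and Tmem88 (0.990), and to Bid Bin2, Lrg1 and Fgr (each 0.998). Bax ran with Zfp64 (0.983), Snai1 (0.982) and Basp1 (0.980), and Bak1 with Dcaf6 (0.970), A430072P03Rik (0.970) and Pnpla8 (0.968).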

How the data were processed

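RNA of sorted neutrophils was sequenced from 9 libraries, 3 per compartment. According to the study's methods, cDNA was made with SMARTSeq v2, paired reads of 151 bases were mapped with STAR 2.5.2b to GRCm38, counted with featureCounts 1.5.0 on GENCODE M7 genes, and genes with under 5 reads in all samples were dropped. The authors deposited log2 FPKM values, which were used as they stand. Their steps gave back whole reads for 46517 of 46517 genes (each value within 0.001 of a whole read), with 0.143 to 0.287 reads added before the log. The length behind the FPKM was the genomic span for 84.5% of the genes found in GENCODE M21, so levels between genes were computed anew per exonic kilobase of that release, from reads divided by the authors' scaled library sizes.

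Genes with at least 5 reads in at least 1 library (17714) were fitted with limma 3.58.1 in R 4.3.3 (eBayes with a trend on mean log2 reads, 1 coefficient per compartment, all 9 libraries), with Benjamini-Hochberg adjustment over all genes and a threshold of 0.05. A filter on the FPKM level was not used as the main one because it would drop long genes with ample reads. The fit and the recovery were tested on simulated data. Reads are not corrected for PCR duplicates, so intervals (95%) cover counting error only. Libraries of a compartment came from separate experiments, each a pool of mice. Members and lists were chosen with earlier results of these data known. Named are the members, genes of the lists by counts with values for those called or without reads, and the 3 genes most like each member. Alternatives covered filters, pseudocounts of 1 and 0.1, scalings, variance models, limma-voom on the recovered reads, the replicate block, and each library left out. Shares without length and with libraries left out were added after seeing the data. Some genes of the lists enter the counts but are not reported here.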

Additional observations from a re-analysis of the deposited data

How the results depend on the processing

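The number of members called in both directions together stayed within 1.5 times of its value in every alternative that was run, but the split did not. For tumor minus blood, 5 higher and 1 lower became 4 and 4 with median centring and 5 and 2 with quantile normalization. Leaving out 1 library gave 4 to 7 calls for tumor minus blood (6 with all), 7 to 9 for tumor minus bone marrow (8), 7 to 7 for blood minus bone marrow (7), and 6 to 7 of 7 ratios (6). Members higher in tumor than in blood fell to 3 without a filter on low values, without tumor replicate 1 or tumor replicate 2, and, of 8, with the A1 reads summed. In the last of these settings 5994 of 17712 genes were higher. The filter on FPKM left 8 members to test. Some differences that had not passed turned sign. For tumor minus blood these were Mcl1 (0.090 with quantile normalization, 0.17 on plain totals), Bcl2 (-0.75 with quantile normalization), Bak1 (0.24 on plain totals) and Bcl2l11 (0.27 on plain totals, and -0.44 to 0.061 with 1 library left out). Bcl2 was also -0.76 for tumor minus bone marrow with quantile normalization, and for blood minus bone marrow it was 0.0030 and 0.020 with pseudocounts of 1 and 0.1, 0.25 with median centring, and -0.54 to 0.47 with 1 library left out. Among log2 ratios, Mcl1 over Bcl2l11 in tumor minus blood ranged from -0.36 to 0.14 with 1 library left out. With a pseudocount of 1 on the FPKM, Bcl2 over Mcl1 was -0.67 in tumor minus bone marrow and Bax over Bak1 -0.087 in blood minus bone marrow, the latter -0.0090 to 0.22 with 1 library left out. The cause was not tested. Whether the replicate numbers pair the samples could not be told from correlations of deviations from means of 3 libraries. Same-numbered libraries correlated at -0.211 to 0.182 (9 pairs) and the other pairs at -0.247 to 0.237. With the replicate block 7 members were called for tumor minus blood, 8 for tumor minus bone marrow and 7 for blood minus bone marrow, the added call being Bcl2 (1.35, adjusted p = 0.0442, limma). Among the members, Bcl2, Bak1 and the A1 genes had under 50 reads in every bone marrow library.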
